A study of Mus musculus with 3 samples.

Results

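Cxcl1, Cxcl2, Cxcl3, Cxcl5, Csf3, Csf2, Il6 and Lif are 8 secreted proteins that recruit, release or sustain neutrophils and other myeloid cells. They were chosen by name from the 26989 gene symbols of the deposited count tables, and all 8 have a row in each of the 3 tables. The tables hold single-cell RNA sequencing of whole skin from C57BL/6 mice, given as 9 weeks old in the series' design text. One library came from unirradiated mice given saline (control), one from UV-irradiated mice given saline (UV), and one from UV-irradiated mice that received VD, taken to be the vitamin D that the title names (UV + VD). The labels give neither the UV dose, the timing, the number of mice per library nor the sex. With 1 library per group no difference between groups can be tested, so levels are CPM (each gene's counts scaled to a common library total) summed over the cells of a class. Their 95% intervals, and those of ratios and shares, cover counting error only.

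The 4 CXC chemokines act on the receptor Cxcr2 and draw neutrophils along a gradient. Csf3 (G-CSF) drives neutrophil production and release from bone marrow, and Csf2 (GM-CSF) sustains granulocytes, macrophages and dendritic cells. Il6 and Lif both signal through the shared receptor subunit Il6st (gp130), Il6 in the acute inflammatory response and Lif in several tissue stress responses. In irradiated skin such signals are known to be made by epidermal, stromal and immune cells, and their short-lived transcripts are classic targets of the transcription factor NF-kB.

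The genes lie on a pair of mouse chromosomes. In the GENCODE annotation of build GRCm38, Cxcl5, Cxcl3, Cxcl1 and Cxcl2 follow one another on chromosome 5 from 90759360 to 90905938, all on the plus strand. Il6 is on the same chromosome from 30013114 to 30019981. Lif, Csf2 and Csf3 are on chromosome 11. The 250 bases before the RefSeq start site were available for 6 of the 8 genes, and 4 are printed because these are the genes with the highest counts or the same motif: capitals mark matches to the kappa-B motif, spelled GGG, any 2 bases, then TTTCC, on either strand. All are on the plus strand and given 5′ to 3′, from RefSeq on GRCm38.p6.
Cxcl1 (chr5:90890995-90891244): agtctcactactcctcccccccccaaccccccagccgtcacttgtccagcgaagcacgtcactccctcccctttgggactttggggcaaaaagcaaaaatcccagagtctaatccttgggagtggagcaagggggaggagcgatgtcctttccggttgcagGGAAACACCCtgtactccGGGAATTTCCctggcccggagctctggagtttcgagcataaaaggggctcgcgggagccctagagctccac
Cxcl2 (chr5:90903649-90903898): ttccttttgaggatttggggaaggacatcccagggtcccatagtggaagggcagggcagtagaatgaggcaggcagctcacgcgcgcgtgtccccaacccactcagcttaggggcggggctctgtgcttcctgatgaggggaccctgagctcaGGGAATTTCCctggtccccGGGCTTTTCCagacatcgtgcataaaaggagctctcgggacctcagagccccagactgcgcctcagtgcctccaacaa
Cxcl3 (chr5:90785851-90786100): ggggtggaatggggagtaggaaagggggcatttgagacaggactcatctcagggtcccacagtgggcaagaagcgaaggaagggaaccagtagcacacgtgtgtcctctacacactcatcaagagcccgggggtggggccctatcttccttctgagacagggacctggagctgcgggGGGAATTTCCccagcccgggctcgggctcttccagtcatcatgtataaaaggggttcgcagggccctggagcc
Il6 (chr5:30012864-30013113): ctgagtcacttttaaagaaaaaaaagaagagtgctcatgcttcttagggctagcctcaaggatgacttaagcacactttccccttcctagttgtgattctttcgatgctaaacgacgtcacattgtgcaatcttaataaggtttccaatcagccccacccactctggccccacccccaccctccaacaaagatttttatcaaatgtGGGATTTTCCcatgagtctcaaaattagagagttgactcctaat
The motif was found in these 4 of the 6 windows, against 1.41% of all 32841 promoter windows of that length. The letters GGGAATTTCC recur in Cxcl1, Cxcl2 and Cxcl3, where they begin 71, 97 and 73 bases before the start. Cxcl1 has another match on the minus strand and Cxcl2 a second one on the plus strand, while Il6 has 1, GGGATTTTCC, 44 bases before its start. The windows of Csf2 and Lif hold no such letters. The AP-1 motif TGANTCA was found in Il6 and Lif, and in 6.75% of all windows. The AU-rich element TTATTTATT, a known signal for rapid mRNA decay, occurs 4 times in the transcripts of Csf2 and Cxcl2, 2 times in Cxcl1 and Lif and once in Cxcl3. It occurs in 8.71% of 21877 coding genes. A match describes letters and does not show a working site. Of all 90-base windows of their transcripts, 1.13% of Cxcl2 and 2.27% of Cxcl3 are shared with each other and none of the other 6 genes is shared with any, so reads of the set can be told apart in nearly all of their length.

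Cells were filtered, clustered without the 8 genes and named by marker lists, which kept 9078 control, 5451 UV and 6199 UV + VD cells with median totals of 6822.5, 7566 and 9301 counts. Keratinocyte-like cells made up 92.465%, 61.695% and 92.418% of the 3 libraries. The classes that mattered for these genes were small. Fibroblast-like cells numbered 196, 375 and 189 (2.16%, 6.88% and 3.05%), and myeloid-like cells 134, 589 and 89 (1.48%, 10.8% and 1.44%). The fibroblast-like class joins cluster 20 (144, 181 and 144 cells), led by Pi16, and cluster 23 (52, 194 and 45 cells), led by collagen genes. The myeloid-like class joins the macrophage-like cluster 18 (114, 130 and 75 cells) and cluster 17 (20, 459 and 14 cells), whose leading genes are those of antigen presentation, with 7 monocyte and 11 macrophage markers also detected. The mix of clusters within each class therefore differed between libraries, and values are given by cluster beside the class. Cxcl1, Il6 and Ccl2 stand among the 10 leading genes of cluster 20 although Cxcl1 and Il6 took no part in its definition. No cluster of neutrophils was found. The libraries share 55 (control and UV), 66 (control and UV + VD) and 37 (UV and UV + VD) cell barcodes. The doublet caller marked no cell and is taken not to have worked, so doublets remain in all classes.

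Fibroblast-like cells held most of the counts of Cxcl1, Il6, Lif and Csf2 in all 3 libraries, while Cxcl2 and Cxcl3 were shared between fibroblast-like and myeloid-like cells and most Csf3 counts lay in a small group with endothelial markers. For Cxcl1, a neutrophil chemokine known from mouse stroma, the fibroblast-like share of all counts was 82.0% in control, 81.3% in UV and 89.9% in UV + VD. For Il6 the corresponding shares were 85.8%, 75.5% and 92.9%, and for Lif 87.6%, 87.9% and 91.2%. Cxcl2 counts came to 60.2%, 54.8% and 36.2% from myeloid-like and to 32.2%, 37.0% and 58.9% from fibroblast-like cells. Cxcl3 was 87.2% myeloid in control, but 45.4% in UV and 48.3% in UV + VD, the fibroblast share being 7.55%, 50.5% and 46.8%. Cxcl5, the chemokine of the set with the fewest counts, was 97.2% and 91.8% fibroblast in the irradiated libraries. In control only 40 counts were found, 67.5% of them in myeloid-like cells. Fewer cells of a class in a library lower its share as much as less RNA per cell does, so shares of counts do not give levels.

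**Figure D1:**
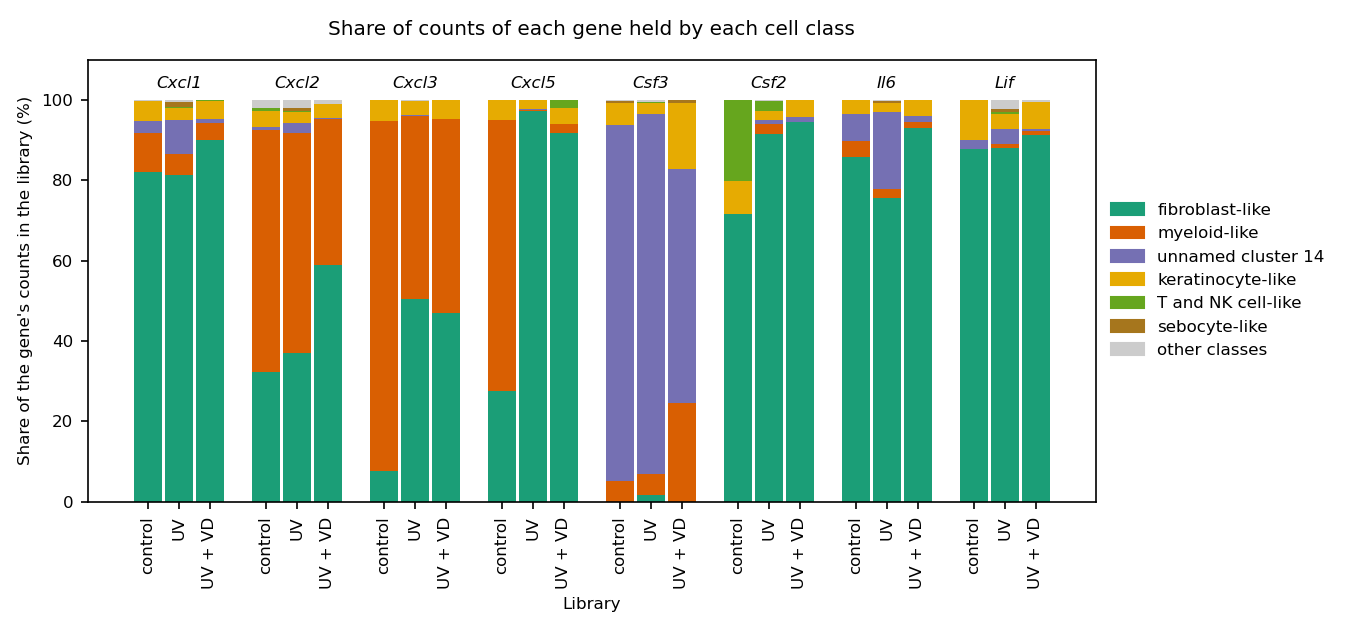
Stacked bars show, for each gene and library, the percentage of that gene's counts held by each cell class. Fibroblast-like cells fill 82.0%, 81.3% and 89.9% of the Cxcl1 bars, and unnamed cluster 14 fills 88.7%, 89.7% and 58.2% of the Csf3 bars.

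Over all cells, every one of the 8 genes was at least 2-fold higher in UV than in control, and the class mix of the libraries moved with this. Of 15461 genes tested by that rule (at least 20 counts over both libraries), 26.2% were at least 2-fold higher. Cxcl1 was at 259 CPM in control, 758 in UV and 481 in UV + VD. Cxcl2 was at 163, 487 and 216 CPM, and Il6 at 43.1, 167 and 79.9 CPM. The UV library was the highest for each. The UV to control ratios ran from 2.92 for Cxcl1 [2.87, 2.97] to 15.7 for Csf2 [13.2, 18.9] and 20.9 for Cxcl5 [15.2, 29.6]. With each class set to its share of control cells, the ratio of Cxcl1 became 0.804, of Cxcl2 0.648, of Cxcl3 0.765, of Il6 0.975, of Csf3 0.936 and of Lif 1.52. Only Cxcl5 at 6.10 and Csf2 at 4.598 then stayed past 2-fold. In the second comparison, which uses the same UV library, 6 of the 8 genes were at least 2-fold lower over all cells in UV + VD than in UV, against 26.9% of all genes. None was 2-fold higher, against 1.32%. The sizes ran from 2.03-fold for Cxcl3 to 23.6-fold for Csf3 [19.5, 28.9], with Cxcl1 at 1.58-fold and Lif at 1.83-fold under the 2-fold rule. With classes at control shares, Cxcl1, Cxcl2, Cxcl3, Il6 and Lif were instead 1.70-fold, 1.73-fold, 1.85-fold, 1.38-fold and 1.35-fold higher in UV + VD. Cxcl5, Csf3 and Csf2 remained lower, by 1.96-fold, 2.92-fold and 4.06-fold. For Csf3 the weighting takes cluster 14, of 25, 182 and 21 cells, as a single class. The endothelial-like group of a finer clustering that carried Csf3, described below, had 7, 80 and 2 cells. The weighted Csf3 values in both comparisons therefore still include that difference in mix. The weighted values of the other genes also include differences in mix within the fibroblast-like and myeloid-like classes. Cluster 20 held 144 of 196, 181 of 375 and 144 of 189 fibroblast-like cells in control, UV and UV + VD. Cluster 17 held 20 of 134, 459 of 589 and 14 of 89 myeloid-like cells.

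**Figure D2:**
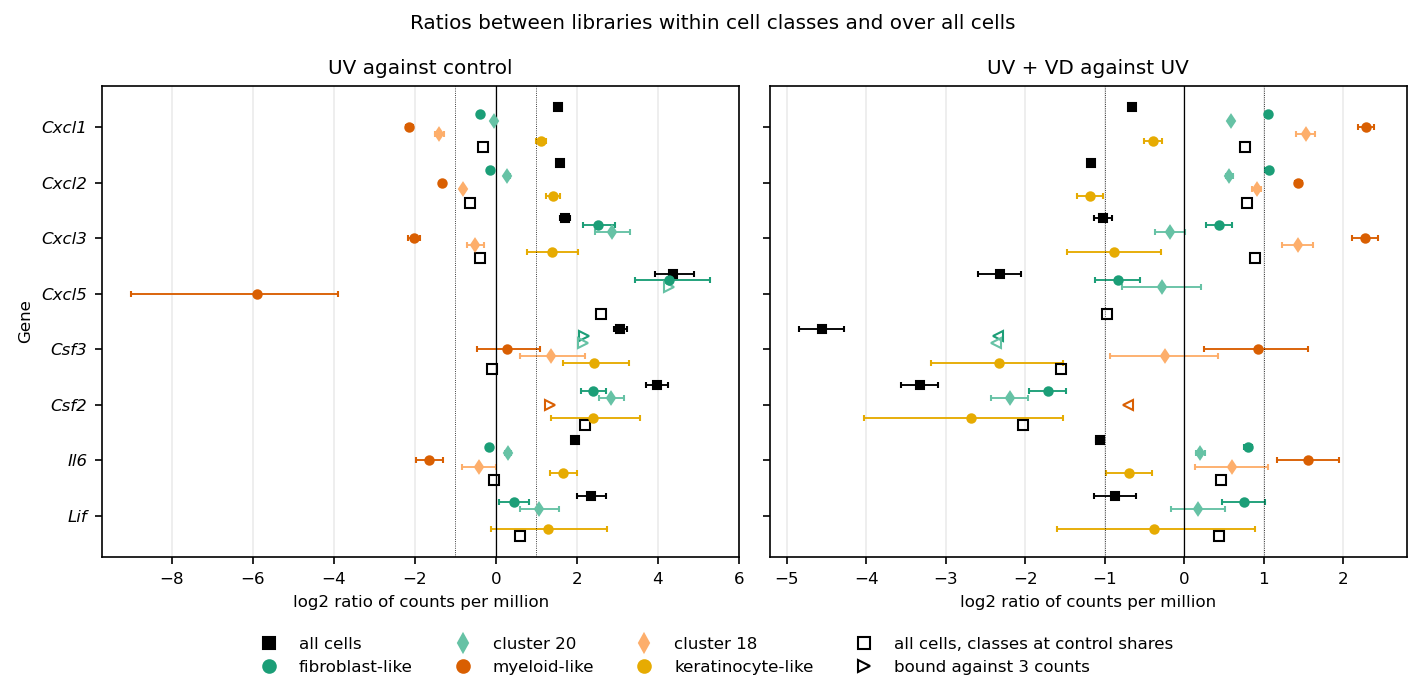
Each point is the log2 ratio of CPM between 2 libraries for 1 gene, over all cells or within a class or cluster, with the 95% counting interval, open triangles for bounds against 3 counts and dotted lines at 2-fold. Over all cells Cxcl1 stands 2.92-fold higher in UV than in control, and at 0.804 with classes set to their control shares.

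Within the fibroblast-like class the abundant genes and the rare ones differed in how the UV library compared with control. Of the 8 genes, all of which had enough counts, 4 (Cxcl3, Cxcl5, Csf2 and Csf3) exceeded control by 2-fold or more in UV, and none was 2-fold lower. Of all genes tested in these cells 11.2% were higher and 3.82% lower. The median log2 ratio was 1.32 over the 8 genes and 0.15 over all genes tested. In cluster 20 alone 5 of the 8 were higher (the same 4 and Lif), against 9.9% of all genes, and none lower, against 4.43%. In cluster 23 it was 3 of the 7 genes with enough counts, against 14.2%, and none lower, against 4.04%.

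Cxcl1 was abundant in cluster 20 in every library. It stood at 21930 CPM in control, 21299 in UV and 32050 in UV + VD, which is 2.19%, 2.13% and 3.21% of all counts in those cells. Control and UV differed by a ratio of 0.971 [0.952, 0.991], and UV + VD was 1.505-fold above UV [1.48, 1.53]. In cluster 23 the level was lower throughout, at 3789, 4708 and 10482 CPM. With each cell thinned to 2500 counts, which removes differences in depth, 97.9%, 95.6% and 96.5% of cluster 20 cells had a Cxcl1 count (98.6%, 96.1% and 97.9% unthinned). The T and NK cell-like class, which should lack the gene, had thinned shares of 5.38%, 11.8% and 5.08% (14.6%, 18.9% and 13.6% unthinned), at median totals of 6705, 3949 and 7341 counts against 4441, 6088 and 4935.5 in cluster 20. Here and below, a share of 0 in the T and NK cell-like class allows up to 2.31%, 1.78% and 5.08% in its 130, 169 and 59 cells. Nearly every cell of cluster 20 was thus Cxcl1-positive in unirradiated skin as well.

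Across classes and libraries Il6 was the member most like Cxcl1. Within the fibroblast-like clusters their differences between libraries were unlike in size. In cluster 23 UV was above control for Cxcl1 and below it for Il6. The Il6 level in cluster 20 was 3516 CPM in control, 4337 in UV and 5005 in UV + VD, the UV to control ratio being 1.23 [1.18, 1.29]. In cluster 23 it was 1313, 971 and 3012 CPM. The thinned share of positive cells in cluster 20 was 81.9%, 81.2% and 79.9% (88.2%, 89.5% and 84.7% unthinned), against 0%, 1.18% and 0% in T and NK cell-like cells (0%, 1.78% and 3.39% unthinned). The shares of Il6-positive cells in cluster 20 lay within each other's counting intervals in the 3 libraries.

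Cxcl2, a close relative of Cxcl1 that is best known from macrophages, was at 5418, 6605 and 9804 CPM in cluster 20 and at 910, 1049 and 2244 CPM in cluster 23. UV was 1.22-fold above control in cluster 20 [1.17, 1.27] and UV + VD 1.48-fold above UV [1.44, 1.53]. All thinned cells of cluster 20 with a Cxcl2 count also had a Cxcl1 count, 100, 141 and 118 cells in control, UV and UV + VD. Because 141 of 144, 173 of 181 and 139 of 144 cells were Cxcl1-positive, that overlap says little about how the 2 genes relate. In cluster 23, where fewer cells had Cxcl1, it held for 5 of 7, 38 of 45 and 18 of 18 Cxcl2-positive cells.

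Among the genes counted in all 3 libraries of cluster 20, Cxcl3 and Csf2 had the largest UV to control ratios, while Cxcl5, with 0 control counts, was at least 19.4-fold higher in UV. Cxcl3, the third of the clustered chemokines, was at 71.4 CPM [53.2, 93.9] in control, 522 [481, 565] in UV and 460 [415, 509] in UV + VD. UV was 7.30-fold above control [5.48, 9.92], and the thinned share of positive cells was 4.86%, 17.7% and 19.4% (6.94%, 20.4% and 20.8% unthinned). T and NK cell-like cells gave thinned shares of 0%, 0.592% and 1.69%. Both irradiated libraries were above control, and 1 cell held 64.7% of the 51 control counts. Cluster 23 showed the same order for UV against control, 21.4 and 147 CPM (6.90-fold, [3.29, 17.4]), with 375 CPM in UV + VD, where 1 cell held 89.0% of the counts.

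Csf2 was high in UV alone. In cluster 20 it stood at 134 CPM [109, 164] in control, 963 [907, 1021] in UV and 211 [180, 244] in UV + VD. UV was 7.16-fold above control [5.81, 8.92], and UV + VD 4.57-fold below UV [3.89, 5.40]. The thinned share of positive cells was 5.56%, 22.1% and 6.94% (6.25%, 22.7% and 9.72% unthinned). Sebocyte-like cells, taken as a class that should lack the gene, gave 0 of 61, 150 and 37 cells at median totals of 5224, 5864.5 and 5857 counts, which allows shares of up to 4.92%, 2.0% and 8.11%. The intervals for UV did not overlap those of the other libraries, in level or in share. In cluster 23 Csf2 had 0 counts in control, 105 in UV and 0 in UV + VD, at least 8.54-fold higher in UV than control, but 1 cell held 59.0% of those 105 counts.

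Cxcl5 and Csf3 were rare in fibroblast-like cells. Cxcl5 had 11 counts in control, all in 1 cell, 518 in UV and 134 in UV + VD, or 10.6, 206 and 116 CPM. Its UV to control ratio over the class was 19.5 [10.8, 39.4], and only 21 of 375 UV cells had a count, 1 of them holding 24.1% of all. The level was higher in cluster 23 (33.6, 315 and 234 CPM) than in cluster 20 (0, 81.4 and 67.0 CPM) in each library. Thinned shares in the class were 0.510%, 5.33% and 3.70%, against 0%, 0% and 1.69% in T and NK cell-like cells, so that the UV + VD share is not separated from that background (7 of 189 against 1 of 59 cells). Csf3 had 0, 33 and 0 counts in the fibroblast-like class, at least 4.56-fold higher in UV than in control, with 19 of the 33 counts in 1 cell. Its thinned share in UV, 1.60%, is near the 1.18% of T and NK cell-like cells and is not told apart from background.

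Lif, the gp130 cytokine of the set, was spread over many fibroblast-like cells. Cluster 20 held it at 65.8 CPM [48.4, 87.5] in control, 138 [117, 161] in UV and 156 [130, 185] in UV + VD. UV was 2.10-fold above control [1.51, 2.97], and cluster 23 gave 94.6, 70.0 and 207 CPM, with UV lowest. Thinned shares in cluster 20 were 16.0%, 23.2% and 22.9% (22.9%, 45.9% and 40.3% unthinned), against 0% in sebocyte-like cells of each library. The intervals of the thinned shares overlapped. With cells thinned to 5000 counts instead, which keeps 46, 128 and 68 cells, the shares were 21.7%, 46.1% and 35.3%. No single cell held more than 7.81% of the cluster 20 counts in any library.

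**Figure D3:**
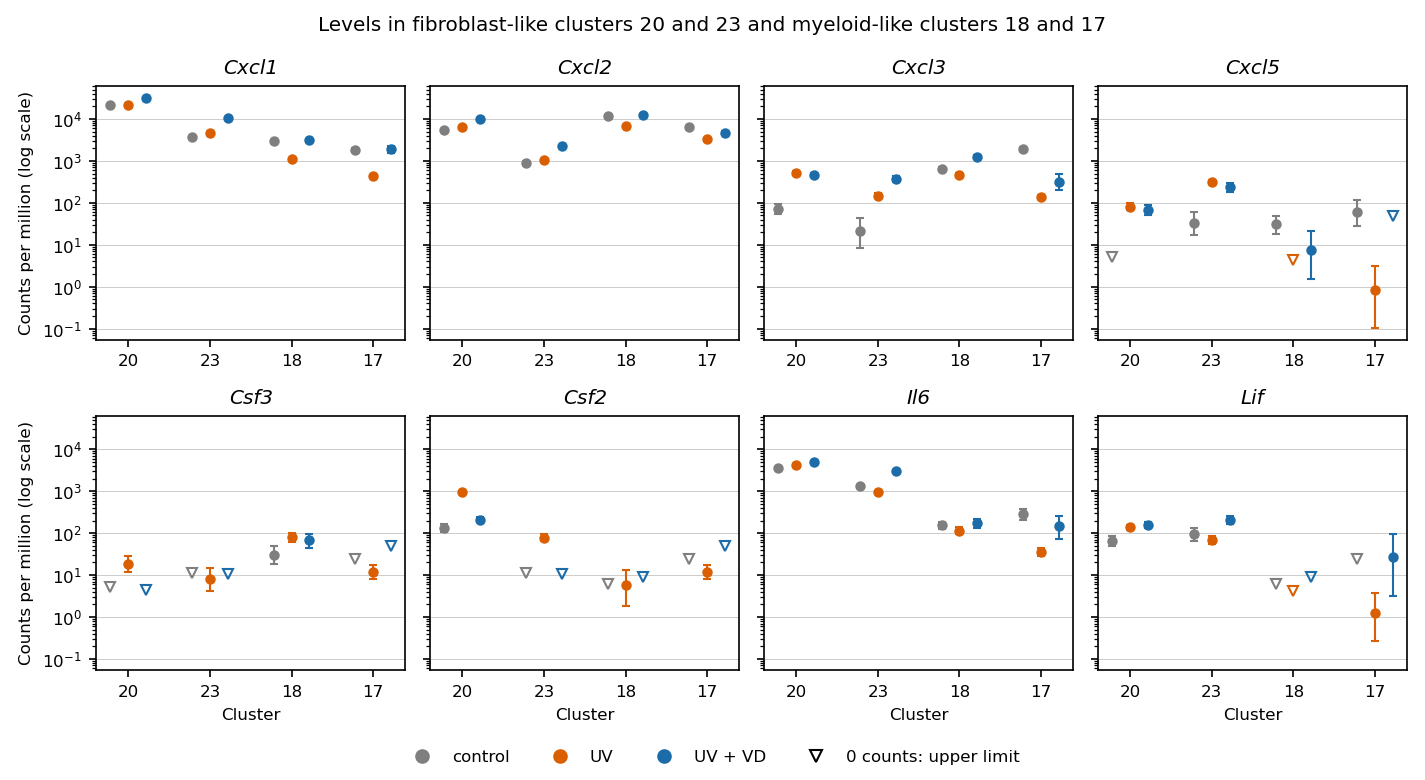
Points give CPM on a log axis with 95% counting intervals for each gene. The groups are fibroblast-like clusters 20 and 23, macrophage-like cluster 18 and myeloid-like cluster 17. Open triangles give the upper limit where there were 0 counts. In cluster 20 Cxcl3 stands at 71.4, 522 and 460 CPM and Csf2 at 134, 963 and 211 CPM in control, UV and UV + VD.

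In the fibroblast-like class as a whole, 2 of the 8 genes (Cxcl1 and Cxcl2) were at least 2-fold higher in UV + VD than in UV, against 6.28% of all genes, and 2 (Csf2 and Csf3) were lower, against 9.61%. The median log2 ratio was 0.59 for the 8 genes and -0.04 for all genes tested. Cxcl1 was 2.07-fold higher [2.04, 2.11] and Cxcl2 2.09-fold [2.03, 2.15]. In cluster 20 no member was 2-fold higher, against 6.05% of all genes, and the same 2 were lower, against 8.44%, with a median log2 ratio of -0.002. In cluster 23, with 45 UV + VD cells, 5 of 7 members (Cxcl1, Cxcl2, Cxcl3, Il6 and Lif) were at least 2-fold higher in UV + VD, against 10.8% of all genes, and Csf2 was lower, against 9.47%. Cxcl1 was 2.23-fold [2.14, 2.32], Cxcl2 2.14-fold [1.96, 2.34], Il6 3.10-fold [2.85, 3.37] and Lif 2.96-fold higher there [2.14, 4.07]. Most Cxcl3 counts of UV + VD in cluster 23 lay in a single cell, as given above, so its call rests on that cell. The clusters thus differed, and the share of cluster 20 in the class also moved, from 181 of 375 cells in UV to 144 of 189 in UV + VD. Csf2 was 3.28-fold lower over the class [2.80, 3.87], and Csf3, at 0 counts in UV + VD, at least 5.08-fold lower. Markers of other cells in the fibroblast-like class also differed. Of 13 macrophage markers 8, 12 and 6 had counts in control, UV and UV + VD, with a summed level of 43.2, 205 and 23.3 CPM, and C1qb, Fcgr1 and Cd163 were at 0 outside UV. These sums are far below the 15391 to 19708 CPM of the myeloid-like class, and their part in the members' values was not tested.

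Combinations of these genes in one cell were found mainly in cluster 20. After thinning, 4 or more of the 8 were detected in 19.4% of control, 43.1% of UV and 37.5% of UV + VD cells. Cells with none of them made up 1.39%, 3.31% and 3.47%. In macrophage-like cluster 18 the share with 4 or more was 5.26%, 3.85% and 16.0%, and in keratinocyte-like cells it was 0 of 8394, 3363 and 5729 cells, which allows up to 0.0357%, 0.0892% and 0.0524%. Of the 40 Csf2-positive UV cells of cluster 20, all had Cxcl1 and 36 had Cxcl2, while 8 had Cxcl3.

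In myeloid-like cells the chemokines ran the other way: 5 of the 7 genes with enough counts (Cxcl1, Cxcl2, Cxcl3, Cxcl5 and Il6) were at least 2-fold lower in UV than in control, against 3.9% of all genes, and 1 (Csf2) was higher, against 18.3%. The median log2 ratio was -1.64 for these genes and 0.23 for all genes. Lif, with 0, 3 and 2 counts, had too few for the rule. Csf2 had 0, 33 and 0 counts, and 1 cell held 18 of the 33. Cxcl2 had the most counts of the 8 here, at 10585 CPM in control, 4186 in UV and 11343 in UV + VD. Cxcl1 was at 2682, 610 and 2988 CPM, and Cxcl3 at 909, 225 and 1091 CPM. Il6 was at 179, 57.4 and 170 CPM. Control and UV + VD lay close together and UV was lowest for these 4 genes. Cxcl5 had 27, 2 and 3 counts, 13 of the 27 in 1 cell, and was 59.1-fold lower in UV than in control [14.9, 513]. In UV 459 of the 589 cells belonged to cluster 17, against 20 of 134 in control and 14 of 89 in UV + VD.

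Within macrophage-like cluster 18 the gaps were smaller. Cxcl2 was at 11621, 6670 and 12582 CPM, 1.74-fold lower in UV than in control [1.68, 1.80]. Its thinned share of positive cells was 93.9%, 92.3% and 94.7% (94.7%, 93.8% and 94.7% unthinned), against 3.08%, 10.1% and 0% in T and NK cell-like cells (7.69%, 15.4% and 0% unthinned), at median totals of 4701, 4469 and 4942 counts for the myeloid-like class. Nearly every such cell was positive in each library, and the difference lay in the level. Cxcl1 was at 2904, 1106 and 3193 CPM, 2.63-fold lower in UV [2.43, 2.85], and the only member past 2-fold on that side. Cxcl3 was at 652, 458 and 1234 CPM, 1.42-fold lower in UV than in control and 2.69-fold higher in UV + VD than in UV [2.35, 3.08]. Il6 was at 153, 115 and 174 CPM, and the UV to control ratio of 0.750 [0.558, 1.01] did not exclude 1. Csf3 was at 30.6, 78.9 and 67.0 CPM, 2.58-fold higher in UV than in control [1.51, 4.603] on 18 and 68 counts. Thus 1 of 5 members was higher and 1 lower between UV and control in cluster 18, against 14.5% and 4.52% of all genes, and 2 of 5 (Cxcl1 and Cxcl3) were higher in UV + VD than in UV, against 4.85%.

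Cluster 17, of antigen-presenting character, carried less of each chemokine in UV. Cxcl2 was at 6497, 3280 and 4677 CPM, Cxcl3 at 1926, 140 and 321, and Cxcl1 at 1806, 430 and 1884. The control and UV + VD values rest on 20 and 14 cells, and 1 cell held 37.6% and 52.0% of their Cxcl2 counts. Over the whole myeloid-like class 4 of the 6 members with enough counts (Cxcl1, Cxcl2, Cxcl3 and Il6) were at least 2-fold higher in UV + VD than in UV, against 5.44% of all genes, and none was lower, against 16.9%. Cxcl1 was 4.89-fold [4.57, 5.24], Cxcl3 4.85-fold [4.32, 5.43] and Cxcl2 2.71-fold higher [2.63, 2.80]. Summed fibroblast markers in the myeloid-like class were 43.4, 484 and 176 CPM, with 7, 12 and 8 of 12 markers detected and Pdgfra and Mfap5 at 0 outside UV. Their part in these values was not tested. Langerhans-like cells also carried Cxcl2, at 514, 1725 and 792 CPM in 58, 42 and 23 cells, and no Cxcl3 counts in any library.

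The balance of Cxcl1 and Cxcl2 differed between the fibroblast-like and macrophage-like clusters. The ratio of Cxcl1 to Cxcl2 counts was 4.05, 3.22 and 3.27 in cluster 20 and 4.16, 4.49 and 4.67 in cluster 23. In macrophage-like cluster 18 it was 0.2499, 0.166 and 0.254. Keratinocyte-like cells gave 1.96, 1.60 and 2.78, against 1.59, 1.56 and 2.22 over all cells, with overlapping intervals in UV and higher values in control and UV + VD. Fibroblast-like clusters thus held several Cxcl1 counts per Cxcl2 count, and macrophage-like cells several Cxcl2 counts per Cxcl1 count, in all 3 libraries.

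Csf3 came from cells with endothelial markers. Cluster 14 was left unnamed because no cell type met the marker rule. Fibroblast and endothelial genes both stood among its leading genes (Crabp1 and Mgp, but also Selp and Sele). It held 88.7% of Csf3 counts in control, 89.7% in UV and 58.2% in UV + VD. It had 25, 182 and 21 cells, and Csf3 counts of 314, 1706 and 64. At a finer clustering of resolution 2 these counts belonged to a blood endothelial-like group of 7, 80 and 2 cells, with Pecam1 at 770, 1222 and 642 CPM. Csf3 there stood at 6904, 3514 and 5138 CPM. The UV + VD value is from 1 cell that held all 64 counts, and 2 of the 6 positive control cells held most of that library's counts. The 23.6-fold gap over all cells between UV and UV + VD thus ran with a difference in the number of these cells, and a level per cell in UV + VD was not measurable at this depth. In UV, 36 of the 182 cluster 14 cells (19.8%) had a Csf3 count after thinning, against 1.18% of T and NK cell-like cells. Il6 was also present there: cluster 14 held 6.71%, 19.1% and 1.65% of all Il6 counts, and the finer endothelial-like group stood at 3122 CPM in control and 3215 in UV. All 12 blood endothelial markers had counts in cluster 14 in control and UV and 7 in UV + VD, with summed levels of 1147, 1689 and 187 CPM. Markers of other cells moved with the group. Lymphatic endothelial markers in cluster 14 summed to 36.0, 577 and 32.1 CPM (2, 6 and 1 of 6 detected), and fibroblast markers to 4442, 13791 and 2217 CPM (12, 12 and 11 of 12). In the finer group Lyve1 and Mmrn1, both lymphatic markers, were at 315 and 441 CPM in UV and at 0 in the other libraries. Their part in the Csf3 values was not tested.

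**Figure D4:**
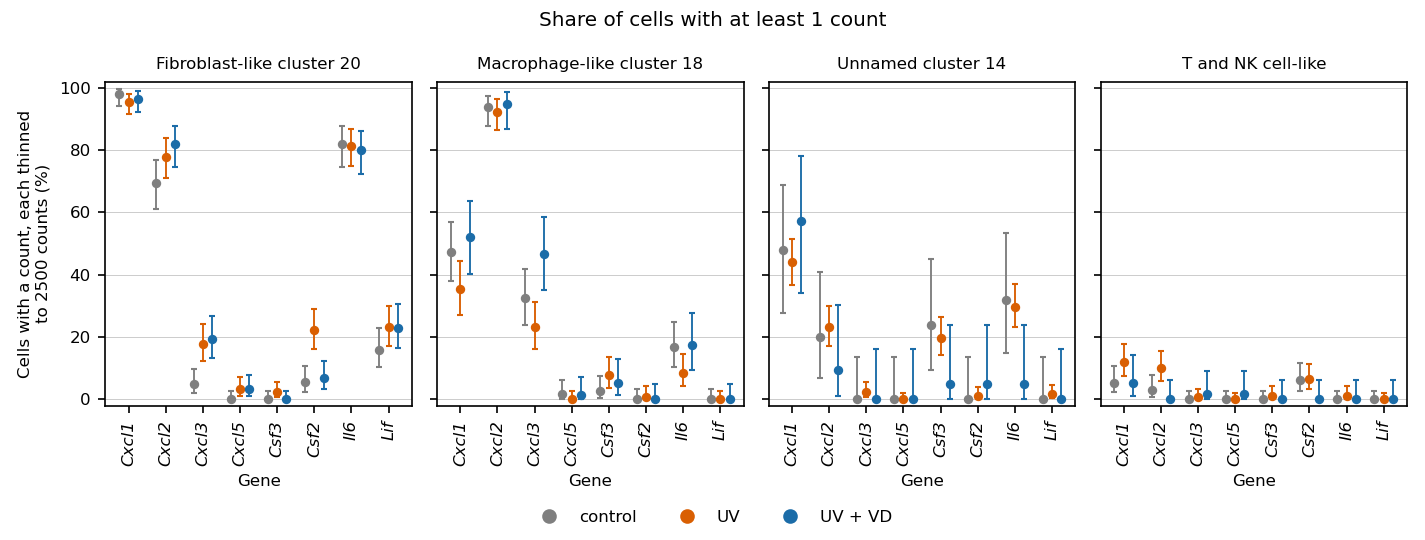
Points give the percentage of cells with at least 1 count after thinning each cell to 2500 counts, with exact 95% binomial intervals, for the 8 genes in 4 groups of cells. T and NK cell-like cells serve as the background for 6 of the genes, with Cxcl1 at 5.38%, 11.8% and 5.08% there against 97.9%, 95.6% and 96.5% in cluster 20.

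Keratinocyte-like cells, by far the most numerous, carried the members at low levels, mostly at or below those of the background class. Cxcl1 was at 13.7, 29.8 and 22.7 CPM, against 21.6, 85.3 and 14.8 in T and NK cell-like cells. Cxcl2 was at 6.99, 18.6 and 8.18 CPM, against 72.7, 57.5 and 0 in T and NK cell-like cells. The UV + VD value, [7.50, 8.89], lies above the 6.80 that the 0 counts of the background class allow. Its thinned share there, 1.87%, is within the 5.08% that 0 of 59 cells allows. Il6 was at 1.62, 5.15 and 3.18 CPM, against 0, 3.08 and 3.69. Thinned Cxcl1 shares were 3.35%, 7.14% and 5.97% (9.65%, 24.9% and 20.1% unthinned), at or near those of the T and NK cell-like class, with median totals of 6978, 10107 and 9768 counts. By the same rule of size 7 of the 7 genes with enough counts were higher in UV than in control, against 10.4% of all genes, and 3 were lower in UV + VD than in UV, against 8.93%. None was lower in the first comparison, against 4.07%, and none higher in the second, against 1.8%. At these shares the counts are not told apart from background, and the level of Cxcl2 in UV + VD is left unread. The background class itself differed between libraries. At resolution 2 a T cell-like cluster led by Trdc had 121, 34 and 35 cells, and another led by Gzmc 9, 135 and 25. Without the highest cell, the UV to control log2 ratio of Cxcl2 in T and NK cell-like cells went from -0.34 to 1.29. Across 15, 14 and 15 keratinocyte-like clusters with at least 50 cells, Cxcl1 lay between 8.60 and 40.6 CPM in control, 19.5 and 49.5 in UV, and 18.5 and 53.9 in UV + VD, so no epidermal cluster stood near the stromal levels. Cxcl5 had 2, 11 and 6 counts over all keratinocyte-like cells.

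T and NK cell-like cells held a share of Csf2, which activated lymphocytes are known to make. Its level was 26.5 CPM [17.5, 38.6] in control and 37.0 [25.9, 51.2] in UV, with 0 counts in the 59 cells of UV + VD. UV + VD was at least 6.69-fold below UV, and control and UV overlapped. The make-up of this class differed between libraries, as given above, and Csf2 was not read by its finer clusters. The thinned share of positive cells was 6.15%, 6.51% and 0%, where 0 of 59 cells allows up to 5.08%. Of the 3 members with enough counts in this class, 1 (Cxcl1) was higher in UV than in control, against 14.1% of all genes, and all 3 (Cxcl1, Cxcl2 and Csf2) were lower in UV + VD than in UV, against 14.3%. Sebocyte-like cells had Cxcl1 at 17.2, 413 and 108 CPM, where 1 cell held 38.2% of the UV counts. All 3 members with enough counts there (Cxcl1, Cxcl2 and Il6) were higher in UV than in control, against 10.1% of all genes, and none was lower, against 2.6%.

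Across 18 combinations of class and library with at least 50 cells, the members showed like and unlike patterns. The values compared are log2(CPM + 10), the points share libraries and depth, and the correlations are a description. Cxcl1 was most like Il6 among the members (Pearson r = 0.968), Cxcl2 most like Cxcl3 (0.892), and Csf2 most like Lif (0.878). Csf3 was unlike all others, with no r above 0.395. Cluster 14 had enough cells to enter in UV only. Csf3 was at 1103 CPM there and at most at 56.5 CPM in any other combination, so its correlations rest largely on that point. Outside the set, the genes most like Cxcl1 were Ccl2 (0.978), Timp2 (0.973) and Cd302 (0.968), and those most like Il6 were Procr (0.985), Fn1 (0.977) and Anxa3 (0.977). Lif was most like Pnp2 (0.992), Sfrp2 (0.991) and Clec3b (0.989), and Csf2 most like Cdon (0.939), Spry2 (0.93) and Spsb1 (0.928). Cxcl2 was most like Ifi207 (0.962), Mapk6 (0.95) and Mylip (0.944), Cxcl3 most like Abca9 (0.971), Igf1 (0.970) and Ifit1 (0.967), and Cxcl5 most like Nkain4 (0.903), Prg4 (0.899) and Rnase10 (0.897). Csf3 was most like Lrg1 (0.975), Flt1 (0.961) and Slc9a3r2 (0.919), of which Flt1 is a receptor of vascular endothelium.

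The receptors of these ligands were read in the same cells. Their summed level was highest in myeloid-like cells, where 8 of 11 had enough counts. Of these 2 were at least 2-fold higher in UV than in control, against 18.3% of all genes, and none was lower, against 3.9%. In UV + VD 1 was higher than in UV, against 5.44%. In myeloid-like cells the receptors' counts are thus near those over all genes. Csf3r, the receptor of Csf3, was at 8.14, 23.3 and 16.7 CPM on 6, 75 and 8 counts, 2.86-fold higher in UV than in control [1.25, 8.03]. Csf2rb2, a beta chain of the Csf2 receptor family, measured 29.9 and 82.8 CPM in control and UV (2.77-fold, [1.79, 4.499]). Lifr was 2.34-fold higher in UV + VD than in UV [1.62, 3.34], at 90.03 and 38.4 CPM. Cxcr2, the receptor of the 4 chemokines, had 0, 3 and 0 counts in myeloid-like cells. It had 140, 385 and 185 counts in keratinocyte-like cells, 1.86, 10.3 and 2.80 CPM, and was 5.54-fold higher there in UV than in control [4.55, 6.77]. Of 9 receptors with enough counts there, 5 were higher in UV than in control, against 10.4% of all genes, and none lower, against 4.07%. In UV + VD 6 were lower than in UV, against 8.93%, and none higher, against 1.8%. No background class was set for the receptors and no share of Cxcr2-positive cells was read, so the Cxcr2 ratio stands without a background. Il6ra was at 60.8, 41.3 and 57.2 CPM in keratinocyte-like cells and at 33.6, 46.6 and 50.02 in fibroblast-like cells. Il6st was at 133, 81.4 and 109 CPM in the former and 203, 243 and 248 in the latter.

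Ligands and factors around the 8 genes were read by the same rule in their leading class. In myeloid-like cells 18.3% of all genes were higher and 3.9% lower in UV than in control, and 5.44% higher and 16.9% lower in UV + VD than in UV. Of 13 related ligands 4 had enough counts there; 2 were higher in UV than in control, and 1 was higher and 2 were lower in UV + VD than in UV. Osm, another gp130 cytokine, was at 71.9, 164 and 81.7 CPM, 2.28-fold above control [1.72, 3.08] and 2.01-fold above UV + VD. Pf4, a CXC chemokine of platelets and macrophages, was at 2314 CPM in UV and 5714 in UV + VD (2.47-fold, [2.36, 2.58]). Of 13 inducing cytokines 7 had enough counts there; 2 were higher and 1 lower in UV than in control, and 1 lower in UV + VD than in UV. Il1rn, the interleukin 1 receptor antagonist, was at 369 and 1056 CPM in control and UV (2.86-fold), and Il33 at 63.8 and 13.6 CPM. Il1b was 2.93-fold higher in UV than in control and 3.55-fold lower in UV + VD than in UV. These directions were opposite to those of Cxcl2 in the same class. Il1b is among the leading genes of cluster 17, and Pf4 among those of cluster 18. Cluster 17 held 20 of 134, 459 of 589 and 14 of 89 myeloid-like cells in control, UV and UV + VD. The ratios of these ligands and cytokines are not given by cluster, and the part of that mix in them was not tested. Of 20 NF-kB factors and mRNA decay regulators, all counted in fibroblast-like cells, Tnfaip3 (182 and 375 CPM, 2.06-fold) and Cebpb (49.0 and 108 CPM, 2.21-fold) were higher in UV than in control and none was lower. These 2 of 20 are no larger a share than the 11.2% of all genes called higher in those cells. None was 2-fold apart between UV + VD and UV, against 6.28% of all genes higher and 9.61% lower.

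No cluster of neutrophils, the cells these chemokines draw, was found, and their markers were read by class. The lowest barcode totals in the deposited tables were 2822, 3010 and 3409 counts in control, UV and UV + VD. Cells with lower totals could not be seen, so the missing cluster does not show that the skin held no neutrophils. Of 22 markers 5, among them Ly6g, Retnlg and Ltf, have no row in any table, and the others summed to 130, 239 and 130 CPM over all cells. Of the 12 with enough counts over all cells, 11 were higher in UV than in control, against 26.2% of all genes, and 11 lower in UV + VD than in UV, against 26.9%. In fibroblast-like cells, whose summed level was highest, 1 gene had enough counts and it was within 2-fold in both comparisons. In the myeloid-like class the markers summed to 352, 573 and 567 CPM, and 8 had enough counts. Of these 6 were higher and 2 lower in UV than in control, against 18.3% and 3.9% of all genes. In UV + VD 2 were higher and 2 lower than in UV, against 5.44% and 16.9%. Mpo, Camp and G0s2 were at 0 there in all 3 libraries. Of the 1977 S100a8 counts in UV, 1804 lay in keratinocyte-like cells (48.4 CPM) and 28 in myeloid-like cells (8.68 CPM).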

How the data were processed

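For 3 libraries, the deposited tables give raw counts of each gene in each barcode of whole mouse skin, made with the Singleron GEXSCOPE kit per the labels' protocols, with no normalization. The submitters' processing notes name FastQC, fastp, STAR and featureCounts without versions and the human build GRCh38, yet 97.6% of the 26989 symbols are mouse symbols in the reference table, so the build used is open. The sources used here do not say whether a count is a molecule or a read, nor how barcodes were selected. The tables hold 9098, 5502 and 6234 barcodes with 21814 or more gene rows each.

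Cells with under 200 genes or over 20% mitochondrial counts were left out, which left totals of 79450666, 50610389 and 69126823 counts in control, UV and UV + VD. Counts were scaled to 10000 per cell and log-transformed, and the 3 libraries were clustered together without the 8 genes (scanpy 1.11.5, 2000 variable genes, 30 components, 15 neighbours, Leiden resolution 1). A cluster was called X-like when at least 3 markers of a type were detected in 25% of its cells with at least 1 among its 10 leading genes, or, for keratinocytes, at least 6 markers. This rule was set after the clusters were seen. Scrublet called 0 doublets in each library and is taken not to have worked.

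Counts were summed per class and library. CPM have exact Poisson intervals, ratios exact conditional intervals and shares Clopper-Pearson intervals, at 95% and for counting error only (scipy 1.17.1). A gene counted as different where the CPM ratio was at least 2 with at least 20 counts over both libraries, and a count of 0 was set to 3 counts per library. Classes needed 50 cells in both libraries, save cluster 23 with its 45 UV + VD cells. The rule recovered the changes put into simulated counts, but these were larger than 2-fold and carried counting error only. That check therefore does not bear on calls near 2-fold or near 20 counts. Nor does it bear on genes whose counts lay mostly in few cells. The 8 genes are all named. Of 5 gene lists, those named are at least 2-fold apart with at least 50 counts in the class of the highest summed level, up to 4 per comparison, plus Cxcr2, Csf3r, Il6ra, Il6st and Lifr. For likeness the 3 genes of highest correlation are named. The members and lists were chosen with earlier results of these data known. Python 3.11.15, numpy 2.4.6, pandas 2.3.3 and matplotlib 3.10.9 were used.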

Additional observations from a re-analysis of the deposited data

Results flagged for a closer look

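For 5 genes the libraries differed in opposite directions in different classes, by at least 2-fold each way. None of these differences between classes was tested, since each group is 1 library, and all values are log2 ratios of CPM with counting error only. Between UV and control, Cxcl1 stood at 1.1164 in keratinocyte-like, 1.9804 in T and NK cell-like and -2.1354 in myeloid-like cells. Cxcl2 stood at 1.4105 in keratinocyte-like and -1.3384 in myeloid-like cells. Cxcl3 stood at 1.3884 in keratinocyte-like, 2.5296 in fibroblast-like and -2.0145 in myeloid-like cells, Cxcl5 at 4.2885 in fibroblast-like and -5.8852 in myeloid-like cells, and Il6 at 1.6641 in keratinocyte-like and -1.6433 in myeloid-like cells. Between UV + VD and UV, Cxcl1 stood at 1.0519 in fibroblast-like, 2.291 in myeloid-like and -2.5313 in T and NK cell-like cells, and Cxcl2 at 1.0645, 1.4382 and -3.3786 in those classes and -1.1848 in keratinocyte-like cells. The keratinocyte-like and T and NK cell-like values rest on counts at or near the background level, and the Cxcl5 value in myeloid-like cells on 27 and 2 counts. The mix of clusters within the myeloid-like and fibroblast-like classes also differed between libraries. In cluster 18 alone, 1 of 5 members (Cxcl1) was at least 2-fold lower in UV than in control. Between UV + VD and UV, 0 of 8 members were 2-fold higher in cluster 20 and 5 of 7 in cluster 23.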

How the results depend on the processing

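Weighting classes to control shares turned 10 of the ratios over all cells, 8 of which had passed 2-fold. On the log2 scale these became -0.32 (Cxcl1), -0.63 (Cxcl2), -0.39 (Cxcl3), -0.10 (Csf3) and -0.036 (Il6) in UV against control, and 0.79 (Cxcl2), 0.89 (Cxcl3) and 0.46 (Il6) in UV + VD against UV. The other alternatives turned the direction of 20 values of 10 ratios within classes, none of which had passed 2-fold, and 12 of the 20 were in fibroblast-like cells, such as Il6 in UV against control, at -0.15 over the class and 0.30 in cluster 20. Of all ratios recomputed, 475 stayed within their counting interval, 204 moved and 8 of at least 2-fold turned. Of the shares 89 stayed and 40 moved, and of the counts of members 225 stayed within 1.5 times and 39 moved; the cause was not tested.

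Over all cells, weighting classes to control shares took the 8 members higher in UV to 2 and the 6 lower in UV + VD to 2. In fibroblast-like cells, the 2 members higher in UV + VD than in UV became 0 without the cells of highest doublet score, in the single largest cluster and in cluster 20 alone, 1 with library means subtracted before clustering and with each cell named on its own, 4 at Leiden resolution 0.5 and 5 in cluster 23. The 2 lower became 1 at a minimum of 100 counts and in cluster 23. In myeloid-like cells, the 5 lower in UV than in control became 3 with each cell named on its own and in cluster 17, and 1 in the largest cluster and in cluster 18. The 1 higher became 0 with all barcodes kept, without the cells of highest doublet score, with library means subtracted, without the highest cell, at 100 counts and in cluster 17, and 2 with each cell named on its own. The 4 higher in UV + VD became 2 in the largest cluster and in cluster 18, and the 0 lower became 1 with a pseudocount of 1 or 10 CPM. In keratinocyte-like cells, the 7 higher became 3 at 100 counts and with a pseudocount of 1, and 0 with 10. The 3 lower became 1 at 100 counts, in the largest cluster and with a pseudocount of 1, and 0 with 10. In T and NK cell-like cells, the 1 higher became 2 at resolution 0.5 and without the highest cell and 4 with each cell named on its own, the 0 lower became 1 without the cells of highest doublet score, and the 3 lower in UV + VD became 0 at 100 counts. Of 24 pairs of member and library, the 1 that was highest in cluster 14 became 3 when classes of 20 cells were admitted. The cluster 17, 18, 20 and 23 values were added after the data were seen. No paired analysis was possible because each group is 1 library and the labels give no replicate numbers. Depth limits the rare genes, such as Cxcl5 in control (40 counts) and Csf3 in UV + VD (110 counts).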
